A study of Brassica napus with 36 samples.

Results

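FLOWERING LOCUS C (FLC) was followed in the leaves of the rapeseed varieties HX17 and HX58, both of the early-maturing semi-winter type and unlike in cold tolerance, across 12 groups of 3 libraries. The 9 loci described are those of 106340 listed genes whose Swiss-Prot match in the deposited annotation is the Arabidopsis MADS-box protein FLOWERING LOCUS C. All 9 were taken, whatever their level, and none was chosen by a measured value. Rapeseed (Brassica napus) is an allotetraploid that carries an A subgenome and a C subgenome, and 4 of the 9 loci lie on A chromosomes and 5 on C chromosomes.

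In both varieties the groups CA and FA were plants that grew for 4 weeks at 20°/16°, were cold-acclimated for 14 days at 4°, and were then held for 12 h at 4° (CA, chilling) or at −4° (FA, freezing). The groups CB and FB grew for 6 weeks at 20°/16° and then had the same 12 h at 4° (CB) or −4° (FB) with no acclimation, which is a cold shock. The controls MA (for CA and FA) and MB (for CB and FB) grew for 6 weeks at 20°/16° and stayed in those conditions for 12 h more, so that by their description MA and MB had the same treatment. The third leaf from the top was taken, and no plant was followed to flowering in these libraries.

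FLC is a transcription factor that represses flowering. In Arabidopsis it binds and holds down the floral integrators FT and SOC1. FRIGIDA and its partners raise FLC, the autonomous pathway lowers it, and prolonged cold silences it through VIN3 and the Polycomb proteins, a process called vernalization, after which the plant can flower. In Brassica the gene is present in several copies, and differences among these copies are known to contribute to the difference between winter, semi-winter and spring types.

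The libraries held 32214015 to 59290772 counts each. As a check of the labelled tissue, 22 loci of leaf mesophyll markers summed to 28000 to 128000 FPKM per library (FPKM is the count scaled to coding length in kilobases and to the library's total count), against 0 to 1.28 FPKM for 10 shoot apex markers, 7 of which had no count in any library. Flower markers (13 loci) summed to 0 to 5.53 FPKM. Of the root markers, SCR (2 loci) and PLT1 (4 loci) summed to 5.29 to 38.9 FPKM, so this list was not at 0 as a whole, and its values by group stand beside the cold shock results. In bulk leaf RNA fewer cells that express a gene and less RNA per cell cannot be told apart.

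The 9 loci formed pairs by position. BnaA02g00370D (A02:134543-138052, minus strand) lay near the end of A02, and of the 10 annotated genes on either side of it 16 had a Swiss-Prot match. Of these matches 14 recurred around BnaC02g00490D (C02:208714-211983, plus strand), and these loci are called the A02 and C02 copies. BnaA03g02820D (A03:1361325-1364246, minus strand) and BnaC03g04170D (C03:2001364-2004498, minus strand) shared 13 matches, and are called the upper A03 and C03 copies. BnaA03g13630D (A03:6240162-6245047, plus strand) and BnaC03g16530D (C03:8403312-8410062, plus strand) shared 10 and are the lower A03 and C03 copies. BnaA10g22080D (A10:14998698-15003013, plus strand) shared 7 with BnaC09g46500D (C09:46345476-46349484, plus strand) and 5 with BnaC09g46540D (C09:46366753-46370908, plus strand). The C09 copies stood 4 places apart in gene order, so that their surroundings overlapped. Coordinates are those of the deposited annotation, on the Genoscope rapeseed genome (no version number stated). The coding lengths were 591 to 594 bases for 7 of the 9 copies, 636 for BnaC03g16530D and 690 for BnaC09g46540D. Reads that fit near-identical copies equally well can be shared or lost in counting, so the level of a single copy carries that uncertainty.

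The leaves of each variety drew their FLC transcript mainly from a single copy, and it was not the same copy. In HX17 the upper C03 copy BnaC03g04170D made up 73.1% ± 12.3 (SD, n = 18 libraries) of the summed FPKM of the 9 loci, followed by BnaA02g00370D with 14.2% ± 6.84 and BnaA10g22080D with 9.42% ± 7.65. In HX58 the C09 copy BnaC09g46540D made up 68.0% ± 5.73, followed by the upper A03 copy BnaA03g02820D with 17.3% ± 5.29, BnaC02g00490D with 6.25% ± 3.30 and BnaA10g22080D with 5.49% ± 2.22. The share of BnaC03g04170D in HX17 ranged from 42.0% to 90.6% and that of BnaC09g46540D in HX58 from 58.1% to 77.0%. The same loci contributed 0.0856% and 0.417% in the opposite variety, respectively.

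**Figure D1:**
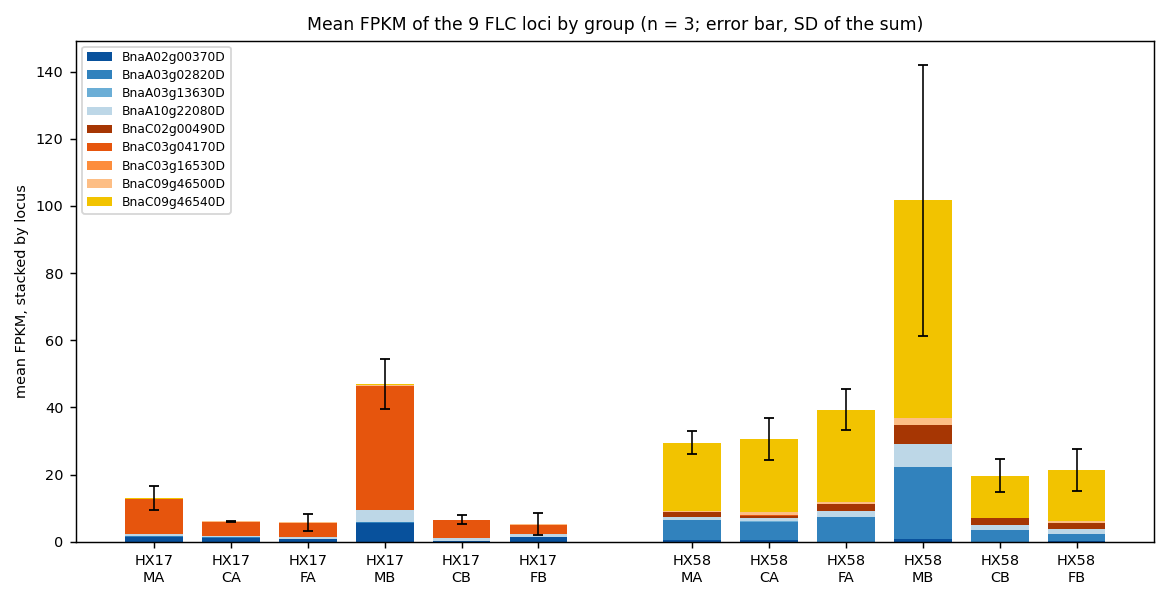
Mean FPKM of the 9 FLC loci in each group, stacked by locus; the error bar is the SD of the summed FPKM over 3 libraries. HX17 bars are mostly BnaC03g04170D and HX58 bars mostly BnaC09g46540D, and the MB control is the tallest bar of either variety, at 46.9 and 101.7 FPKM.

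The summed FPKM of the 9 loci was higher in HX58 than in HX17 in each condition. In HX17 it was 12.9 ± 3.59 in MA, 6.08 ± 0.146 in CA, 5.72 ± 2.52 in FA, 46.9 ± 7.37 in MB, 6.58 ± 1.33 in CB and 5.34 ± 3.34 in FB (mean ± SD, n = 3). In HX58 it was 29.5 ± 3.40 in MA, 30.6 ± 6.27 in CA, 39.3 ± 6.19 in FA, 101.7 ± 40.3 in MB, 19.6 ± 4.94 in CB and 21.4 ± 6.27 in FB. The HX17 and HX58 libraries of a condition did not overlap in this sum in any of the 6 conditions. The A subgenome gave 17.1% to 41.0% of the sum in the HX17 groups and 16.4% to 29.4% in the HX58 groups.

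In the upper A03 and C03 pair the varieties used opposite copies. BnaC03g04170D was counted in all 18 HX17 libraries, at 1.79 to 41.5 FPKM, and in only 2 of the 18 HX58 libraries, with 1 count in HX58_MA replicate 1 and 10 counts in HX58_CA replicate 1. Its A03 partner BnaA03g02820D did the opposite, with 0.756 to 28.4 FPKM in the 18 HX58 libraries and at most 10 counts in any HX17 library. The sum of the pair was 10.7 FPKM in HX17 and 7.64 FPKM in HX58, of which the A03 copy gave 0.943% in HX17 and 99.6% in HX58.

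The A02 and C02 pair showed the same split at a lower level. BnaA02g00370D was found in all 18 HX17 libraries, at 0.202 to 6.44 FPKM, and in 10 of the 18 HX58 libraries, at no more than 1.21 FPKM. BnaC02g00490D had 2 counts in all 18 HX17 libraries together and 0.207 to 9.50 FPKM in the HX58 libraries. Their sum was 1.77 FPKM in HX17 and 2.55 FPKM in HX58, with 99.7% and 10.9% of it from the A02 copy.

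For the A10 and C09 copies the A copy was counted in both varieties and a C09 copy was high in HX58. BnaA10g22080D had 0.0441 to 4.44 FPKM in the HX17 libraries and 0.209 to 9.29 FPKM in the HX58 libraries, with counts in all 36. BnaC09g46540D had counts in 6 of the 18 HX17 libraries, at most 11 in any, and 9.32 to 85.1 FPKM in the HX58 libraries. The neighbouring BnaC09g46500D was low in both varieties, with a mean of 0.148 FPKM in HX17 and 0.796 FPKM in HX58 and a highest library of 3.10 FPKM. The sum of these 3 copies was 1.37 FPKM in HX17 and 30.1 FPKM in HX58.

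The lower A03 and C03 copies were close to 0 throughout. BnaA03g13630D had 11 counts in HX17 and 21 in HX58 over 18 libraries each, and BnaC03g16530D had 7 and 10. Neither reached the count needed for the test in any comparison, and their best library stood at 0.337 and 0.216 FPKM, respectively. A group of 3 libraries with no count of such a copy allows up to 3 counts over the group, and all intervals and limits here cover counting error only. In HX17 all counts of BnaC03g16530D fell in the 3 MB libraries (2, 4 and 1 counts).

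**Figure D2:**
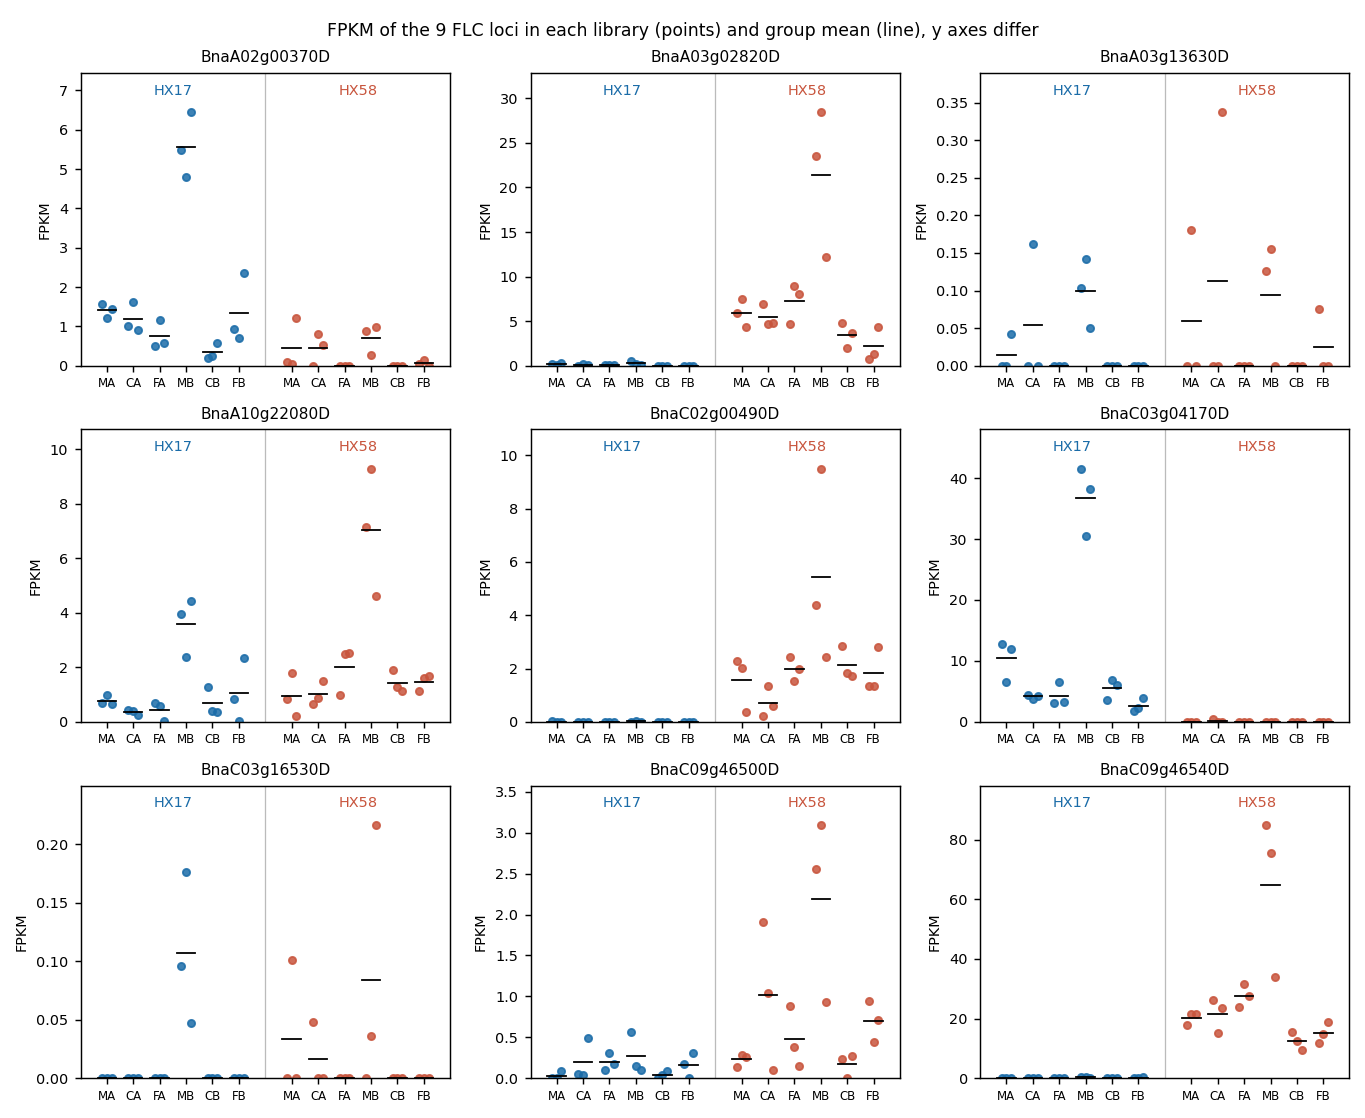
FPKM of each of the 9 FLC loci in every library (points) with the group mean (line), HX17 at left and HX58 at right of each panel; the y axes differ. MB is the highest group for the main copies, and BnaC03g04170D and BnaC09g46540D are each near 0 in one variety.

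Against other genes, the main copies ranked highest in the control MB. BnaC03g04170D stood above 82.1% of the genes with counts in HX17_MA and above 92.9% in HX17_MB, by mean FPKM. BnaC09g46540D stood above 88.2% in HX58_MA and 96.0% in HX58_MB, and BnaA03g02820D above 88.9% in HX58_MB. BnaA02g00370D in HX17_MB stood above 70.3%. In the cold groups BnaC03g04170D stood above 57.9% to 68.7% in HX17, and BnaC09g46540D above 79.6% to 90.6% in HX58. BnaA03g02820D stood above 71.1% in HX58_MA and 52.0% in HX58_FB. BnaA02g00370D stood above 47.9% in HX17_MA and 25.7% in HX17_CB.

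Whether the varieties differed was tested with edgeR within each condition, 3 libraries against 3, where a gene was called at a fold change of at least 2 and an adjusted p under 0.005 over all genes tested. The SE given with an edgeR difference is its absolute value divided by the square root of the quasi-likelihood F statistic. Over the 6 conditions 36 tests of FLC loci were possible, and 22 of them were called, 15 higher and 7 lower in HX58. Of all genes tested, 10.7% were called in MA, 11.5% in CA, 17.2% in FA, 18.7% in MB, 10.7% in CB and 10.4% in FB. A copy can pass the count filter through a single variety, and its test then tends toward that variety. Among those that did were BnaC03g04170D, with 11 counts in all in HX58, and BnaC02g00490D, with 2 in HX17. The tally of calls is therefore not separate evidence beside the levels of each copy.

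BnaC03g04170D was lower in HX58 in 5 of the 6 conditions. In MB its HX17 libraries had 808, 645 and 756 counts (41.5, 30.5 and 38.1 FPKM) and its HX58 libraries none. Set against 3 counts over the HX58 group this was nominally at least 868-fold lower. Both mates of a read pair appear to be counted, so this bound and those that follow are too high. The fitted log2 difference of −12.72 (edgeR adjusted p = 8.27e-07) depends on the small count that the fit adds. The bound was 138-fold in FA, 135-fold in CB and 67.3-fold in FB, and in MA, where HX58 had 1 count against 747 in HX17, the ratio was 813 (95% counting interval 145 to 32200). In CA the difference of −4.72 did not pass (SE 1.12, adjusted p = 0.0114). That group includes the 10 counts of HX58_CA replicate 1, and without that library the difference was −9.54 and was called (adjusted p = 0.00143).

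BnaC09g46540D was higher in HX58 in all 6 conditions. In MA the HX58 libraries had 17.9, 21.5 and 21.4 FPKM and the HX17 libraries 0.164, 0 and 0.0366 FPKM, a log2 difference of 7.87 (SE 0.56, edgeR adjusted p = 1.73e-05). The groups were far apart in each condition. In CA, FA and CB, where HX17 had no count, HX58 was at least 549-fold, 770-fold and 379-fold higher. The log2 difference was 7.88 in MB (SE 0.59, adjusted p = 7.09e-06) and 6.91 in FB (SE 0.75, adjusted p = 3.05e-04). These 6 calls were kept with any single library left out.

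BnaA03g02820D was higher in HX58 in 5 conditions. In MA the HX58 libraries had 5.90, 7.46 and 4.34 FPKM against 0.153, 0.0501 and 0.255 FPKM in HX17, a log2 difference of 5.05 (SE 0.56, edgeR adjusted p = 2.08e-04). In MB the difference was 6.07 (SE 0.45, adjusted p = 6.63e-06) and in FA 6.28 (SE 0.52, adjusted p = 2.32e-05). In CB, with no count in HX17, HX58 was at least 89.0-fold higher. The call in CA (5.51, SE 0.80, adjusted p = 8.90e-04) was lost without HX58_CA replicate 1 (5.31, adjusted p = 0.00712). In FB the copy had no count in HX17 and 20, 36 and 117 counts in HX58, at least 56.8-fold more, but was not called by edgeR (adjusted p = 0.00690), while DESeq2 called it (adjusted p = 8.09e-07).

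BnaC02g00490D was called higher in HX58 in 4 conditions. It was at least 47.8-fold higher in FA, 55.7-fold in CB and 48.0-fold in FB, with no count in HX17, and in MB it had 400 counts in HX58 against 1 in HX17, a ratio of 339 (95% counting interval 60.5 to 13400). The call in FB was lost whichever library was left out (adjusted p 0.00654 to 0.0109), and that in CB was lost without any 1 of the HX58_CB libraries (adjusted p 0.00587 to 0.00647). In MA and CA this copy had too few counts for the test, with ratios of 118 (20.7 to 4680) in MA and at least 15.6 in CA. Without HX58_MA replicate 3, which had 7 counts against 65 and 56, the difference in MA could be tested and was called (6.70, adjusted p = 0.00304).

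BnaA02g00370D was lower in HX58 in MB and FA. In MB the HX17 libraries had 5.48, 4.80 and 6.44 FPKM and the HX58 libraries 0.884, 0.272 and 0.978 FPKM, a log2 difference of −3.05 (SE 0.47, edgeR adjusted p = 6.90e-04). In FA it had no count in HX58 and was at least 24.0-fold lower there, a call that was lost whichever library was left out (adjusted p 0.00540 to 0.0103). In FB the difference was −4.56 and not called (adjusted p = 0.0101). In MA and CA the HX58 libraries ranged from 0 to 1.21 FPKM, and HX58_MA replicate 3 lay just below the lowest HX17_MA library.

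BnaA10g22080D was not called between the varieties in any condition. Its log2 differences were 0.16 in MA, 1.34 in CA, 1.82 in FA, 0.85 in MB, 1.03 in CB and 0.22 in FB, all toward HX58, with a smallest adjusted p of 0.0479 in MB by edgeR. In MB the HX58 libraries had 7.16, 9.29 and 4.63 FPKM and the HX17 libraries 3.96, 2.36 and 4.44 FPKM, so that the lowest HX58 library was only just above the highest HX17 library. It was the only copy with counts in all 36 libraries. BnaC09g46500D was not called either (MB 2.86, SE 0.70, adjusted p = 0.00984), though without HX58_MB replicate 3 it was (3.15, adjusted p = 0.00440).

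The genes around the FLC copies were then compared in the same way, a comparison chosen after the FLC values had been seen. Around BnaC03g04170D, all 13 neighbours that could be tested among the 20 nearest genes were called lower in HX58, in MA and in MB alike, with median log2 differences of −9.14 and −9.83. Of all genes tested, 5.32% were called higher and 5.37% lower in HX58 in MA, and 8.63% and 10.1% in MB. Several of these neighbours were abundant in HX17 and nearly uncounted in HX58. The next gene, BnaC03g04180D, encoding a FabZ-type acyl carrier protein dehydratase, had a mean of 38.7 CPM (counts scaled to the library total) in HX17 and 0.0472 in HX58. BnaC03g04230D, encoding the 40S ribosomal protein S6-2, had 131.4 and 0.387 CPM, and BnaC03g04250D, a histone H3 gene, 25.4 and 0.0927. The unbroken run of called genes around this copy held 20 tested genes in MA and 21 in MB, from BnaC03g03980D to BnaC03g04330D (C03:1921734-2071113).

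Around the partner copy on A03 the called neighbours all had the opposite direction. Of the neighbours of BnaA03g02820D, 3 of 12 tested in MA and 6 of 13 in MB were called higher in HX58 and none lower, with median log2 differences of 1.32 and 1.23. The S6-2 gene next to this copy, BnaA03g02870D, had 108.8 CPM in HX17 and 463.8 in HX58. The FLC copy itself, at 5.05 in MA and 6.07 in MB, lay above the highest of these neighbours (2.89 and 3.11).

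On C02 the order was turned around. Of the neighbours of BnaC02g00490D, 8 of 9 tested in MA and 10 of 10 in MB were called higher in HX58, with median log2 differences of 3.89 and 5.62. BnaC02g00480D, named for UPSTREAM OF FLC, the gene beside FLC in Arabidopsis, had 0.0180 CPM in HX17 and 6.73 in HX58, and BnaC02g00560D, encoding the transcription factor TGA4, 0.0225 and 7.45. The run of called genes extended over 18 tested genes in MB (C02:88268-284039) and 4 in MA. Within 50 genes on either side, 91.3% of 46 tested genes were higher in HX58 in MB and 83.7% of 43 in MA, against 14.5% and 13.0% on the whole of C02.

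Around BnaA02g00370D the called neighbours were lower in HX58. Of the nearest genes, 1 of 11 tested in MA and 5 of 13 in MB were called lower and none higher (medians −0.76 and −1.65), and within 50 genes 53.1% of 49 tested were lower in MB and 14.9% of 47 in MA. BnaA02g00380D, the UPSTREAM OF FLC copy on A02, had 4.92 CPM in HX17 and 4.26 in HX58. The FLC copy differed by −3.05 in MB, close to the −2.97 of its lowest tested neighbour, and by −1.92 in MA, where that neighbour stood at −4.06.

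Around the remaining copies no such block was seen. Of the nearest genes of BnaA10g22080D, 1 of 12 was called higher and 1 lower in MA and 0 of 10 in MB by edgeR, where 2 had an unadjusted p under 0.05, with medians of −0.01 and −0.06. Next to BnaC09g46540D, 2 of 7 tested neighbours were called higher in MB and 1 of 6 in MA, with 1 lower in MA, while most genes there had too few counts for the test. Both DOWNSTREAM OF FLC copies beside it, BnaC09g46520D and BnaC09g46550D, had no count in any library. The lower A03 and C03 copies had 2 and 1 neighbours called lower and 0 and 1 higher in MB, and none in MA, where 5 of 12 and 3 of 10 had an unadjusted p under 0.05.

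**Figure D3:**
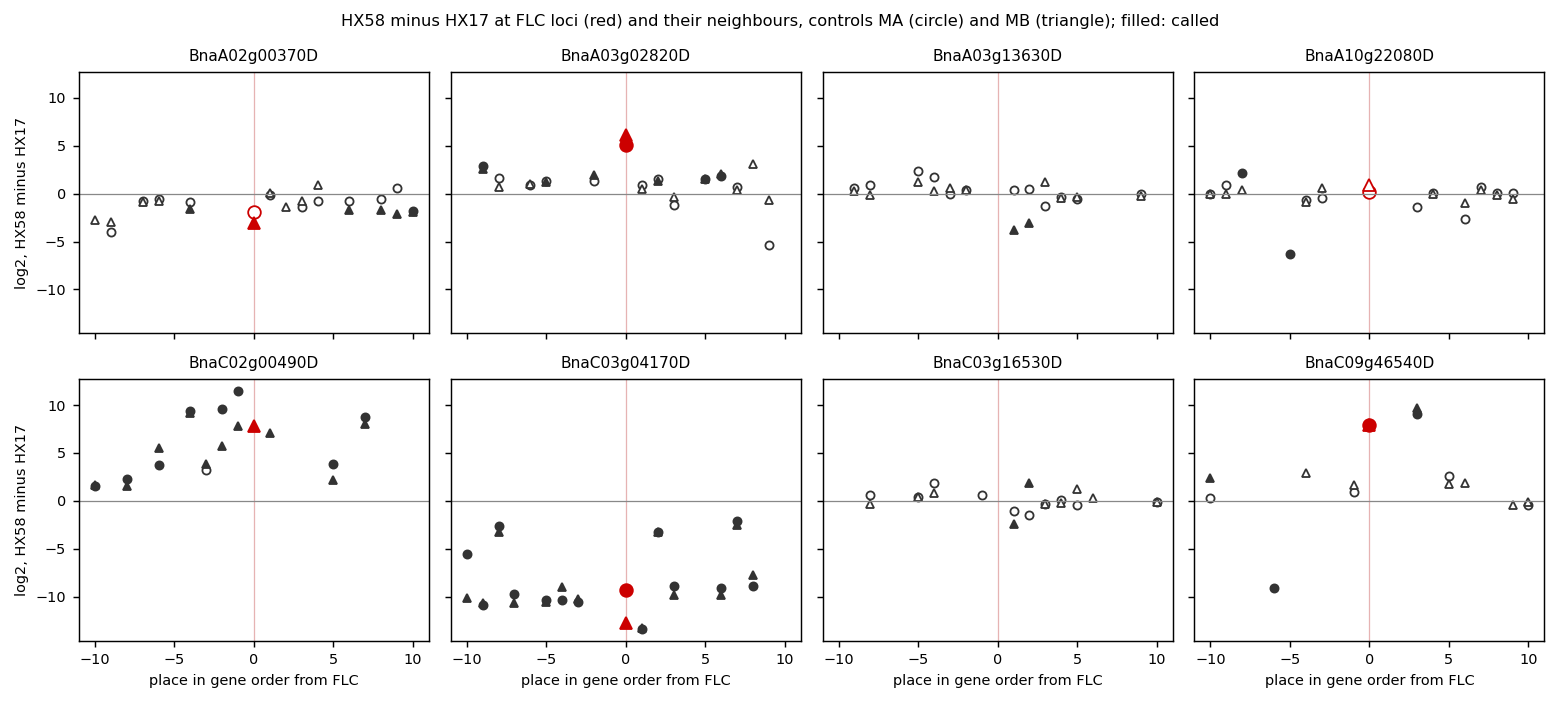
Log2 difference of HX58 minus HX17 (edgeR) at the tested genes up to 10 places away in gene order (black) from 8 FLC loci, and at the FLC locus itself (red) where it could be tested, which BnaA03g13630D and BnaC03g16530D could not, in the controls MA (circles) and MB (triangles); filled symbols are called. Around BnaC03g04170D all tested neighbours lie below 0 and around BnaC02g00490D all lie above 0; values of genes uncounted in one variety depend on the small count that the fit adds.

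The control groups differed in FLC, although their description is the same. In HX17 BnaC03g04170D had 12.8, 6.52 and 12.0 FPKM in MA and 41.5, 30.5 and 38.1 FPKM in MB, 3.52-fold more with no overlap. BnaA02g00370D had 1.57, 1.21 and 1.45 FPKM in MA and 5.48, 4.80 and 6.44 FPKM in MB, and BnaA10g22080D 0.687, 1.00 and 0.638 FPKM against 3.96, 2.36 and 4.44 FPKM. All 3 copies were thus 3.52 to 4.62 times as high in MB.

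In HX58 BnaC09g46540D had 17.9, 21.5 and 21.4 FPKM in MA and 85.1, 75.5 and 33.8 FPKM in MB. BnaA03g02820D had 5.90, 7.46 and 4.34 FPKM in MA and 23.6, 28.4 and 12.2 FPKM in MB, and BnaA10g22080D 0.833, 1.79 and 0.209 FPKM against 7.16, 9.29 and 4.63 FPKM. The ratios of the means were 3.19, 3.63 and 7.44, and the groups did not overlap. BnaC02g00490D (ratio 3.50) and BnaC09g46500D (ratio 9.57) were also without overlap. Replicate 3 of HX58_MB was the lowest of its group for each of these 5 copies.

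None of the 9 tests of MB against MA was called by edgeR, where 1.1% of all genes were called in HX17 and 0.015% in HX58. Of these 9 tests 8 had an unadjusted p under 0.05, and DESeq2 called 7 at the same limits. An unadjusted edgeR p under 0.05 was found for 9711 of 51136 genes in HX17 and 12786 of 53281 in HX58. DESeq2 called 2049 of these 51136 genes in HX17 and 2339 of the 53281 in HX58. With an adjusted p under 0.05 and no limit on the fold, edgeR counted 7 copies as higher in MB, all 3 tested in HX17 and 4 of 6 in HX58, where 2.49% and 1.76% of all genes were higher. The log2 differences of these 7 were 1.70, 1.93 and 1.54 for BnaA02g00370D, BnaA10g22080D and BnaC03g04170D in HX17 (adjusted p = 0.0138, 0.0311 and 0.0146), and 1.66, 2.66, 3.05 and 1.49 for BnaA03g02820D, BnaA10g22080D, BnaC09g46500D and BnaC09g46540D in HX58 (adjusted p = 0.0268, 0.0439, 0.0359 and 0.0257). A copy can pass the count filter through MB alone, and it then tends to be higher in MB. BnaC09g46500D did so in HX58 (MA 4, 8 and 5 counts, MB 61, 80 and 20). The number of copies higher in MB is therefore not separate evidence of a gap. Since a treatment is read against its own control, the gap between the control groups stands beside each result that follows.

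The response to cold was tested against the group's own control in 31 tests over 8 comparisons, and 10 were called, all lower in the cold and all against MB. Of all genes tested, the share called lower was 0.449% for CA, 2.63% for FA, 8.19% for CB and 13.3% for FB in HX17, and 2.77%, 7.26%, 11.8% and 13.6% in HX58. For cold shock, 10 of 16 tests of FLC loci were called lower and all 16 had a negative value. A copy can pass the count filter through MB alone, and it then tends to a negative value. Among those that did were BnaA02g00370D in HX17 (CB 6, 6 and 14 counts, MB 106, 101 and 127) and BnaC09g46500D in HX58 (CB 6, 0 and 6, MB 61, 80 and 20). The count of negative values is therefore not separate evidence of a fall.

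After cold shock in HX17, BnaC03g04170D fell from 41.5, 30.5 and 38.1 FPKM in MB to 3.58, 6.83 and 6.10 FPKM in CB and 1.79, 2.31 and 3.86 FPKM in FB. The log2 differences were −2.96 (SE 0.27, edgeR adjusted p = 1.75e-04) and −3.75 (SE 0.30, adjusted p = 2.80e-05), and every cold library lay below every control library. BnaA02g00370D fell from 5.48, 4.80 and 6.44 FPKM to 0.202, 0.251 and 0.584 FPKM in CB (−4.22, SE 0.46, adjusted p = 3.81e-04). In FB it had 0.942, 0.711 and 2.36 FPKM (−2.01, SE 0.45, adjusted p = 0.00477), a call that was lost on leaving out any 1 of 5 of the 6 libraries, all but FB replicate 3 (adjusted p 0.0113 to 0.0211). BnaA10g22080D stood at −2.55 in CB (adjusted p = 0.00819) and −1.69 in FB (adjusted p = 0.108), neither called, and in CB it was called without CB replicate 1 (−3.38, adjusted p = 0.00241).

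After cold shock in HX58, 3 copies fell in both CB and FB. BnaC09g46540D fell from 85.1, 75.5 and 33.8 FPKM to 15.5, 12.4 and 9.32 FPKM in CB (−2.37, SE 0.32, edgeR adjusted p = 3.73e-04) and to 11.9, 14.8 and 18.8 FPKM in FB (−2.07, SE 0.31, adjusted p = 7.72e-04). BnaA03g02820D fell from 23.6, 28.4 and 12.2 FPKM to 4.76, 1.98 and 3.63 FPKM in CB (−2.66, SE 0.32, adjusted p = 2.13e-04) and to 0.756, 1.34 and 4.36 FPKM in FB (−3.26, SE 0.61, adjusted p = 0.00234). BnaA10g22080D fell from 7.16, 9.29 and 4.63 FPKM to 1.92, 1.28 and 1.12 FPKM in CB (−2.29, SE 0.34, adjusted p = 6.32e-04) and to 1.13, 1.60 and 1.68 FPKM in FB (−2.25, SE 0.32, adjusted p = 5.65e-04). The cold libraries of these 3 copies lay below all control libraries, HX58_MB replicate 3 included. In FB the call of BnaC09g46540D was lost without FB replicate 2 (−2.02, adjusted p = 0.00560), and that of BnaA03g02820D without FB replicate 2, MB replicate 1 or MB replicate 2 (adjusted p 0.00834 to 0.0124).

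The tissue marker sums also differed between these groups (values with no test). Root markers summed to 22.8 to 29.4 FPKM in HX17_MB, 10.7 to 15.5 in CB and 9.15 to 11.6 in FB, and to 21.7 to 27.0 FPKM in HX58_MB, 10.3 to 18.2 in CB and 10.6 to 19.5 in FB. These groups did not overlap with MB. Leaf mesophyll markers summed to 45400 to 66300 FPKM in HX58_MB and 28000 to 34200 FPKM in HX58_CB, and to 50000 to 60700 FPKM in HX17_MB and 36600 to 49000 FPKM in HX17_CB, while FB overlapped with MB in both varieties. In MA the root markers summed to 27.3 to 30.5 FPKM in HX17 and 30.1 to 38.9 FPKM in HX58, and in the acclimated groups to 5.29 to 14.6 FPKM. Their part in the FLC values was not tested.

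BnaC02g00490D was not called after cold shock. It had 4.38, 9.50 and 2.42 FPKM in HX58_MB, 2.86, 1.84 and 1.71 FPKM in CB and 1.33, 1.35 and 2.81 FPKM in FB, with log2 differences of −1.33 and −1.52 that were not called (edgeR adjusted p = 0.0351 and 0.0365) and groups that overlapped. BnaC09g46500D had 2.56, 3.10 and 0.927 FPKM in MB and 0.230, 0 and 0.269 FPKM in CB (−3.75, adjusted p = 0.00560). Without CB replicate 2 it was called (−3.20, adjusted p = 0.00415). BnaA02g00370D had too few counts in HX58 for the test after cold shock. It had 49 counts in MB, 0 in CB (at least 17.3-fold lower) and 5 in FB. Its mean FPKM was 11.4 times as high in MB as in FB, with no overlap.

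After cold acclimation no FLC copy was called against MA in either variety, in 15 tests by edgeR, of which 3 had an unadjusted p under 0.05, and DESeq2 called none. In HX17 BnaC03g04170D had 4.45, 3.82 and 4.31 FPKM in CA and 3.03, 6.52 and 3.26 FPKM in FA against 12.8, 6.52 and 12.0 FPKM in MA. The log2 differences were −1.32 (SE 0.33, adjusted p = 0.0384) and −1.20 (SE 0.39, adjusted p = 0.0570), and CA lay below all MA libraries. BnaA02g00370D was at −0.26 and −0.82, and BnaA10g22080D at −1.08 and −0.68.

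In HX58 no copy was called between the acclimated groups and MA, and the summed FPKM was 30.6 in CA and 39.3 in FA against 29.5 in MA. BnaC09g46540D had 26.2, 15.2 and 23.5 FPKM in CA and 23.8, 31.7 and 27.5 FPKM in FA against 17.9, 21.5 and 21.4 FPKM in MA, log2 differences of 0.15 (SE 0.23, edgeR adjusted p = 0.702) and 0.44 (SE 0.17, adjusted p = 0.0777). Its FA libraries all lay above the MA libraries (ratio of means 1.36), while CA and MA overlapped. BnaA03g02820D had 6.95, 4.71 and 4.79 FPKM in CA and 4.72, 8.99 and 8.02 FPKM in FA against 5.90, 7.46 and 4.34 FPKM in MA, differences of −0.06 (SE 0.36) and 0.27 (SE 0.33). For the lower copies the ratio of mean FPKM to MA was 1.07 (CA) and 2.11 (FA) for BnaA10g22080D, 0.458 and 1.28 for BnaC02g00490D and 4.43 and 2.06 for BnaC09g46500D, each with overlapping libraries. With 3 libraries a group such values do not show that the levels were equal.

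**Figure D4:**
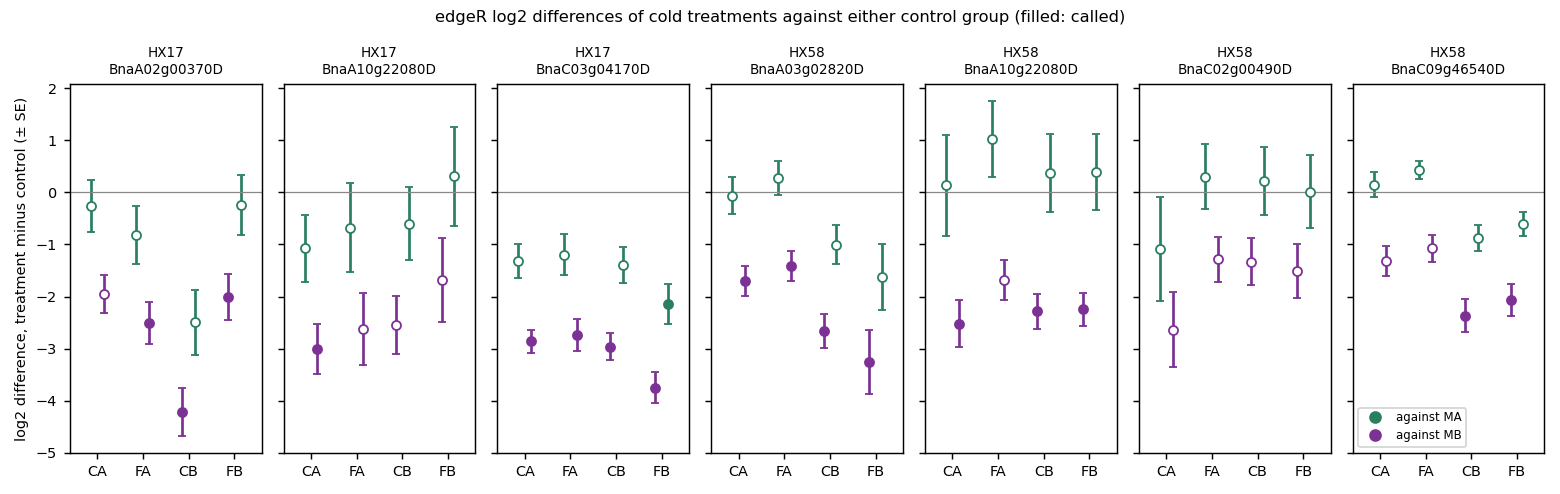
Log2 difference (edgeR) of the cold treatments CA, FA, CB and FB from the control MA (green) and from the control MB (purple). Panels show the main FLC copies of HX17 (3 panels) and HX58 (4 panels). Bars are ± SE derived from the F statistic, and filled points are called. Each point against MB lies below the same treatment's point against MA.

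Most of these calls depended on which control group was used. Against the opposite control group 8 tests were called, all lower in the cold. Among all genes tested against MB, 1782 of 50810 (CA) and 2749 of 51194 (FA) were called lower in HX17. In HX58 these were 2433 of 52248 and 5256 of 54610. Against MA they were 1840 of 52013 (CB) and 3813 of 51338 (FB) in HX17, and 4664 of 53356 and 6642 of 54238 in HX58. CA and FA, set against MB, gave BnaC03g04170D at −2.86 and −2.74 in HX17 (edgeR adjusted p = 9.95e-05 and 1.46e-04), and BnaA03g02820D at −1.70 and −1.41 in HX58 (adjusted p = 0.00228 and 0.00419). BnaA10g22080D was called in CA of both varieties, and BnaA02g00370D in FA of HX17. CB and FB, set against MA, gave a single call, BnaC03g04170D in FB of HX17 (−2.14, adjusted p = 0.00268), which was thus the only copy and treatment of cold shock called against both controls. In CB it stood at −1.40 against MA (adjusted p = 0.0214). BnaC09g46540D in HX58 stood at −0.88 and −0.61 against MA in CB and FB (adjusted p = 0.0198 and 0.0585), and BnaA10g22080D at 0.37 and 0.40, above the control.

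The order of the groups by mean FPKM was therefore alike for the main copies only at its head. MB was the highest group for BnaA02g00370D, BnaA10g22080D and BnaC03g04170D in HX17 and for BnaA03g02820D, BnaA10g22080D and BnaC09g46540D in HX58, with a range that did not overlap the next group. For each of these 6 the 5 groups below MB overlapped with their neighbour in the order. The lowest group was CB for BnaA02g00370D (0.346 FPKM), FB for BnaC03g04170D (2.65 FPKM) and CA for BnaA10g22080D (0.362 FPKM) in HX17, and FB for BnaA03g02820D (2.15 FPKM), MA for BnaA10g22080D (0.945 FPKM) and CB for BnaC09g46540D (12.4 FPKM) in HX58.

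Freezing was compared with chilling in 15 tests of FLC loci, and none was called. By edgeR 2 of the 15 had an unadjusted p under 0.05, the smallest adjusted p was 0.106, and DESeq2 called none. Of all genes tested, 4.22% (FA against CA) and 2.85% (FB against CB) were called in HX17, and 16% and 2.92% in HX58. BnaC03g04170D in HX17 differed by 0.09 (SE 0.37) after acclimation and by −0.77 (SE 0.40) without it, and BnaC09g46540D in HX58 by 0.24 (SE 0.22) and 0.35 (SE 0.28). The lowest p was that of BnaA02g00370D in HX17, higher in FB than in CB (log2 2.22, SE 0.75, edgeR adjusted p = 0.106). There FB replicate 3, at 2.36 FPKM, stood above the others.

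Acclimated and non-acclimated plants at the same final temperature were compared in 15 tests, with no use of a control. None was called by edgeR, 5 had an unadjusted p under 0.05, and DESeq2 called 2. Among all genes DESeq2 called 5930 of 50841 (CA against CB) and 9721 of 49995 (FA against FB) in HX17. In HX58 it called 13217 of 51355 and 16027 of 54173. The shares by edgeR were lower. Of all genes tested, 1.48% (CA against CB) and 7.4% (FA against FB) were called in HX17, and 17.2% and 22.4% in HX58. In HX58 the mean FPKM of BnaC09g46540D was 1.74 times as high in CA as in CB (edgeR adjusted p = 0.0130) and 1.82 times as high in FA as in FB (log2 0.97, SE 0.22, adjusted p = 0.00689), and the FA and FB libraries did not overlap. BnaA03g02820D was 3.37 times as high by mean FPKM in FA as in FB (log2 1.83, SE 0.61, edgeR adjusted p = 0.0357). Without HX58_FB replicate 3 both FA against FB differences were called (log2 1.24, adjusted p = 7.26e-04 for BnaC09g46540D, and log2 2.98, adjusted p = 4.41e-04 for BnaA03g02820D). In HX17 BnaC03g04170D differed by a log2 of 0.14 (SE 0.32) between CA and CB and of 0.93 (SE 0.43) between FA and FB. BnaA02g00370D in HX17 was at 2.29 for CA against CB (edgeR adjusted p = 0.0571) and −0.59 for FA against FB (adjusted p = 0.537). BnaC02g00490D in HX58 was lower in CA than in CB (−1.27, adjusted p = 0.262). For each of these copies the CA and CB libraries did not overlap in BnaA02g00370D of HX17 and BnaC02g00490D of HX58.

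Whether the varieties differed in their response was best measured for BnaA10g22080D, the single copy with counts in all 36 libraries. Its interaction of variety and treatment was 1.21 (SE 1.18) for CA, 1.72 (SE 1.18) for FA, 0.27 (SE 0.63) for CB and −0.66 (SE 0.93) for FB, none of it called by edgeR or DESeq2 (adjusted p = 0.673, 0.495, 0.850 and 0.724). The share of all genes called was 0.169% for CA, 0.23% for FA, 1.92% for CB and 1.6% for FB. The fit also ran on the other copies, 27 tests in all with 0 calls by edgeR, 5 at an unadjusted p under 0.05 and a smallest adjusted p of 0.119. The other copies tested each had libraries without a count in at least 1 variety, among them BnaC03g04170D with 11 counts in all in HX58 and BnaC02g00490D with 2 in HX17. For copies nearly uncounted in a variety the response there could not be measured, and for the rest it rests on low counts in that variety. BnaA02g00370D in HX58, for instance, had 49 counts in MB, 0 in CB and 5 in FB. The tally therefore says little about a difference in response.

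The genes whose group means most resembled those of each FLC copy were listed by the correlation of log2(CPM + 1) over the 12 group means, as a description, since the 12 points share varieties and libraries. Other FLC copies were left out of this list. For BnaC03g04170D these were the glutathione S-transferase T2 gene BnaC01g35270D (r = 0.992), BnaC04g29500D (0.990) and an unannotated transcript (0.989). For BnaC09g46540D they were BnaA09g11250D, a methyltransferase-like protein 23 gene (0.994), the FKBP17-2 isomerase gene BnaC08g37380D (0.993) and the WRKY16 gene BnaC09g18980D (0.992). For BnaA03g02820D an ACC oxidase homolog 12 gene, BnaA03g56220D, reached 0.987. For BnaA10g22080D the beta carbonic anhydrase 5 gene BnaC07g44310D reached 0.948, for BnaA02g00370D the TBC1 domain gene BnaA02g09450D 0.933, and for BnaC09g46500D the ubiquitin ligase gene UPL6 (BnaC05g36270D) 0.954. For BnaC02g00490D the nearest were 3 unannotated transcripts (0.984 to 0.985).

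The other genes of the pathway were counted over lists of loci by their Swiss-Prot match, each treatment against its own control. As a background, 0.608% in CA, 5.26% in FA, 5.98% in CB and 12.8% in FB of HX17 and 2.6% in CA, 9.42% in FA, 14.2% in CB and 16.1% in FB of HX58 were called higher among all genes tested. The shares called lower after cold shock, given above for FLC, were 8.19% and 13.3% for HX17 and 11.8% and 13.6% for HX58. No locus matched MAF3, MAF4, ELF7 or AP1. Of 13 loci of the FLC-like repressors MAF1, MAF2, MAF5 and SVP, 8 were tested in HX17 and 10 in HX58. In CB none was called by edgeR, with 4 of 8 and 4 of 10 at an unadjusted p under 0.05. Their median log2 differences were −0.45 and −0.46, and those of all genes 0.0142 and −0.0178. The FLC medians of −2.96 and −2.37 rest on 3 and 5 tested loci, some of which passed the count filter through MB alone. Against MA, BnaC03g04170D stood at −1.40 in HX17_CB. In HX58_CB, BnaC09g46540D stood at −0.88 against MA and BnaA10g22080D at 0.37. Whether FLC fell more than the MAF and SVP loci was not tested. In FB 1 was higher in HX17 and 2 were lower in HX58, in FA 1 was lower in HX58, and in CA none was called (4 and 4 at an unadjusted p under 0.05).

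Of 46 loci of FLC activators (FRIGIDA, its partners and chromatin factors), 36 or 37 were tested in each treatment. In CB, 1 was higher in HX17, and 2 were higher and 3 lower in HX58. In FB, 1 was higher and 1 lower in HX17, and 3 were higher and 4 lower in HX58. A HUA2 locus, BnaA03g39560D, fell in FB by 1.74 in HX17 (edgeR adjusted p = 0.00272) and by 1.72 in HX58 (adjusted p = 2.77e-04), and a VIP4 locus, BnaAnng06810D, rose in CB by 1.19 and 1.03 (adjusted p = 0.00328 and 0.00242). HUA2 and VIP4 are both needed for high FLC in Arabidopsis. After acclimation none of the list was called by edgeR, with 0 (CA) and 4 (FA) loci at an unadjusted p under 0.05 in HX17 and 7 and 12 in HX58.

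Of 35 autonomous pathway loci, whose proteins lower FLC in Arabidopsis, 29 or 30 were tested. In CB, 1 was higher in HX17, and 4 were higher and 1 lower in HX58. In FB, 2 were higher and 2 lower in HX17, and 1 and 1 in HX58. After acclimation 2 were higher in HX58_FA, and in the other 3 groups none was called by edgeR, with 6 loci in each at an unadjusted p under 0.05. An MSI4 locus, BnaC09g09900D, rose in CB by 1.31 in HX17 and 1.68 in HX58 (edgeR adjusted p = 9.86e-04 and 3.33e-04). An FCA locus, BnaC01g21860D, fell in FB by 1.16 and 1.19 (adjusted p = 0.00408 and 0.00104). The list's median in CB was 0.22 in HX17 and 0.38 in HX58, above that of all genes.

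Of 67 loci of the vernalization and Polycomb list, 38 to 46 were tested. In HX17 the loci called higher were 2 of 43 in CA, 2 of 38 in FA, 3 of 40 in CB and 5 of 41 in FB, and the loci called lower were 1 in CB and 2 in FB. In HX58 they were 6 of 44 in FA, 10 of 44 in CB and 9 of 46 in FB, with 3 lower in CB and 5 in FB, and none was called in CA by edgeR (11 of 43 at an unadjusted p under 0.05). The VIL2 loci BnaAnng10940D and BnaC07g42420D, coding for a VIN3-like protein, rose in FA by 1.86 and 1.85 in HX17 and by 2.13 and 1.44 in HX58 (edgeR adjusted p between 1.11e-04 and 9.59e-04). Of the 4 VIN3 loci, BnaA03g10310D, BnaC02g11530D and BnaC03g12980D were at or below 0.0390 FPKM in both MB groups and at 0.384 to 1.95 FPKM in the CB and FB groups. BnaA02g08140D was at 0.0241 FPKM in HX17_MB but at 1.80 FPKM in HX58_MB. In HX17 the 4 VIN3 loci were at 0.00442 to 0.0944 FPKM in MA, 0.892 to 2.62 in CA and 0.0203 to 0.121 in FA. BnaA02g08140D in HX58 was at 1.73 FPKM in MA, 0.999 in CA and 1.46 in FA. The remaining VIN3 loci of HX58 were at 0.0294 to 0.122 FPKM in MA, 0.0767 to 0.299 in CA and 0.102 to 0.204 in FA. These VIN3 levels are group means.

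The integrator list held FT, TSF, SOC1, FD, SPL15, AGL24, LFY and FUL, of which FT and SOC1 are repressed by FLC in Arabidopsis. Of its 48 loci, 19 to 24 were tested. In CB, 2 were higher and 1 lower in HX17, and 1 was higher and 4 lower in HX58. In FB, 4 were higher and 4 lower in HX17, and 2 and 2 in HX58. The SOC1 locus BnaC04g50370D rose in FB from 2.84 to 13.9 FPKM in HX17 (log2 2.36, edgeR adjusted p = 1.19e-04) and from 7.08 to 14.5 FPKM in HX58 (log2 1.01, adjusted p = 0.00144). This locus is from a set of 16 SOC1 loci and was named by the size of its change. In MA it was at 3.23 FPKM in HX17 and 8.3 FPKM in HX58. A link to the FLC levels was not tested. In FA, 2 loci of the list were higher in HX17, and 1 was higher and 2 lower in HX58. In CA 1 was lower in HX58, and none was called in HX17 by edgeR (4 at an unadjusted p under 0.05).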

How the data were processed

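RNA was sequenced from 36 leaf libraries, 12 groups of 3. The authors aligned reads with Hisat2 2.0.4 to the Genoscope rapeseed genome and counted reads per gene with HTSeq 0.9.1. The deposited counts are not normalised. The count divided by coding length and library total gave the deposited FPKM within 0.5% for 98.206% of values and for all 324 FLC values (2239 genes had a mismatch somewhere). Both mates of a pair appear to be counted, so counting intervals are too narrow and bounds too high. The study's texts differ on whether libraries are technical or biological replicates, so p-values measure the spread between these samples. The deposited group means (36 columns) and the authors' 48 columns of fold changes and p-values were not used.

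Counts were tested with edgeR 4.0.16 in R 4.3.3 (quasi-likelihood, TMM, filterByExpr with a count minimum of 10 and a total of 15). Each comparison used its own libraries, 6 for a pair of groups and 12 for an interaction, with Benjamini-Hochberg adjustment over all genes tested. The study's methods name an adjusted p under 0.05 and its results a fold of at least 2 with 0.005. The latter pair was used for calls. Folds against a group without counts were set against 3 counts over the group. Alternatives were DESeq2 1.42.0, its size factors within edgeR, no filter, an adjusted p under 0.05 without a fold limit, 1 model over 36 libraries, the opposite control group, the replicate number as a block, and leaving out each library. The fitting scripts were tested on simulated data. Neighbouring genes were taken in annotation order, 10 on each side. For each pathway list up to 2 loci were named, those with the largest mean change among loci with a mean CPM of 1 or more that were called in the same direction in both varieties, and every VIN3 locus. The members, gene lists and comparisons were chosen with earlier results of these data known. No sequence is shown.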

Additional observations from a re-analysis of the deposited data

How the results depend on the processing

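Of 10 falls after cold shock or acclimation against the own control, DESeq2 gave 12, an adjusted p under 0.05 alone 16, no filter 13, the model over 36 libraries 11 and the size factors of DESeq2 within edgeR 10. Among all genes in CB, those called lower went from 4325 to 7183, 10085, 5258, 4743 and 4394 in HX17, in that order of settings. In HX58 they went from 6357 to 9297, 12734, 7395, 6433 and 6593. MB against MA went from 0 calls to 7 with DESeq2, 7 at an adjusted p under 0.05 and 3 with no filter. Among all genes these calls, in either direction, went from 564 to 2049, 2124 and 1241 in HX17 and from 8 to 2339, 2158 and 610 in HX58. Acclimated against non-acclimated cold went from 0 higher to 2 with DESeq2, 3 at an adjusted p under 0.05 and 1 in the model over 36 libraries, and freezing against chilling from 0 lower to 1 in that model (BnaA02g00370D in HX58). The 15 higher and 7 lower calls between varieties became 17 and 9 with DESeq2 and 18 and 8 with no filter or in the 36-library model. Among all genes in MB, calls between varieties went from 10146 to 12729 with DESeq2, 11646 with no filter and 8655 in that model. Against the opposite control, BnaA10g22080D went to −2.52 in HX58_CA, 0.37 in HX58_CB and 0.40 in HX58_FB, and BnaA03g02820D to −1.41 in HX58_FA. The cause of these changes was not tested.

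Leaving out 1 library gave 8 to 11 falls against the own control, 14 to 16 higher and 6 to 8 lower calls between varieties, and 0 to 2 higher calls for acclimation. The share of BnaC03g04170D in HX17 ran from 71.8% to 74.4% and that of BnaC09g46540D in HX58 from 67.5% to 68.3%. Whether equal replicate numbers mark paired samples is not stated. Over 24 comparisons the correlation of same-numbered deviations ran from −0.341 to 0.185, and no pairing was used in the main fits. With the replicate block the falls against the own control were 7, the varieties gave 11 higher and 5 lower, and the other families stayed at 0. Without a filter the median of all genes moved by up to 0.184 on the log2 scale. Levels below a few counts, as in BnaA03g13630D and BnaC03g16530D, were not detectable as differences at this depth.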
